A study of Rattus norvegicus with 30 samples.

Results

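The lung transcriptomes of rats with severe acute pancreatitis (SAP) that were given emodin or dexamethasone (DEX) were compared 24 hours after the operation. The libraries were chosen by their labels alone. They comprised 3 of Emo-24h and 3 of DEX-24h, 6 of the 30 RNA-seq libraries in the series, and the description covers all 15934 genes tested in these lungs. All were from male Sprague Dawley rats, 8 weeks old. After a fast of 12 hours, each rat had received 5.0% sodium taurocholate (0.1 mL per 100 g of body weight), a bile salt that injures the pancreas, by retrograde infusion into the biliopancreatic duct. DEX rats were then given DEX intravenously at 10 mg/kg, and the carrier of emodin (0.5% carboxymethylcellulose sodium) into the stomach. Emo rats were given emodin into the stomach and saline intravenously. Both drugs were given at 2 and 12 hours. The labels give the emodin dose as 40 mg/kg in the protocol and 10 mg/kg in the sample description. The methods of the study also state 40 mg/kg. The 10 mg/kg of the sample description is not explained, so that the dose is uncertain by that amount. Drug, route and dose differed together between the groups and cannot be told apart. For reference, SAP-24h rats had the same infusion and both carriers, Con-24h rats had saline in place of taurocholate, an infusion that the study took to cause mild pancreatitis of its own, and Sham-24h rats only had the pancreas moved, with both carriers given to each. Each library was lung tissue of 1 rat, 3 of 6 rats per group. In such bulk tissue, fewer cells of a type and less RNA per cell cannot be told apart.

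DEX is a synthetic glucocorticoid. It enters cells, binds the glucocorticoid receptor and brings it to DNA, where genes such as Fkbp5, Tsc22d3 and Dusp1 are induced, while many cytokine and chemokine genes are held down. Glucocorticoids also lower the number of circulating lymphocytes and promote surfactant production in the lung. Emodin is an anthraquinone from rhubarb with reported anti-inflammatory effects.

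Reads counted on genes ranged from 25012600 to 27731374 in Emo-24h and from 28107243 to 33095751 in DEX-24h. By the study's supplement, every Emo-24h library had a larger share of uniquely mapped reads than any DEX-24h library. The share was larger still in every Sham-24h and Con-24h library. Whether these differences between libraries had a part in any result was not tested. The tissue was lung by its markers. Sftpc, the surfactant protein of alveolar type 2 cells, stood at 18138 to 21968 FPKM in Emo-24h and 12733 to 20612 FPKM in DEX-24h (FPKM is the authors' level of a gene, scaled to its length and to the size of the library). Ager of alveolar type 1 cells lay at 645 to 1072 and 785 to 1275 FPKM, and Cdh5 of endothelial cells at 108 to 175 and 103 to 121 FPKM, respectively. Heart muscle transcripts, which can come with dissected lung, were present in all 6 libraries, with a summed level of 159 to 318 FPKM over 14 genes in Emo-24h and 24.6 to 190 FPKM in DEX-24h. Members of Emo-24h were not alike. Replicate 3 had lower levels of T cell and natural killer cell genes and higher levels of glucocorticoid receptor targets than the other two, and replicate 2 had the lowest levels of interferon-stimulated genes. For this reason the counts are also given without single libraries, and whether a red cell or heart muscle share had a part in any result was not tested.

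Differential expression was tested with edgeR's quasi-likelihood test on the counts, and a differentially expressed gene (DEG) had a Benjamini-Hochberg adjusted p under 0.05 and at least a 2-fold change. Between Emo-24h and DEX-24h, 807 of 15934 genes were DEGs (5.06%). Up-regulated genes, with higher levels in Emo-24h, numbered 609 (3.82%), and down-regulated genes 198 (1.24%). The median log2 fold change was 1.77 over the up-regulated genes, -1.47 over the down-regulated genes and 0.01 over all genes tested. At least a 4-fold difference was reached by 238 up-regulated and 50 down-regulated genes, and at least 8-fold by 83 and 13. In FPKM, all 3 rats of a group lay above all 3 of the other for 775 of the 807 DEGs, against 29.4% of all genes tested. Of the DEGs, 267 were called again in each of the 6 fits that left out 1 library, 190 up-regulated and 77 down-regulated, and 45 in none of them. Among mRNA genes, 797 were DEGs (5.12%), and the count became 423, 384 and 878 without Emo-24h replicates 1, 2 and 3, and 642, 503 and 406 without DEX-24h replicates 1, 2 and 3. The plot of all genes tested shows the surplus of up-regulated genes and the largest changes on either side.

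**Figure D1:**
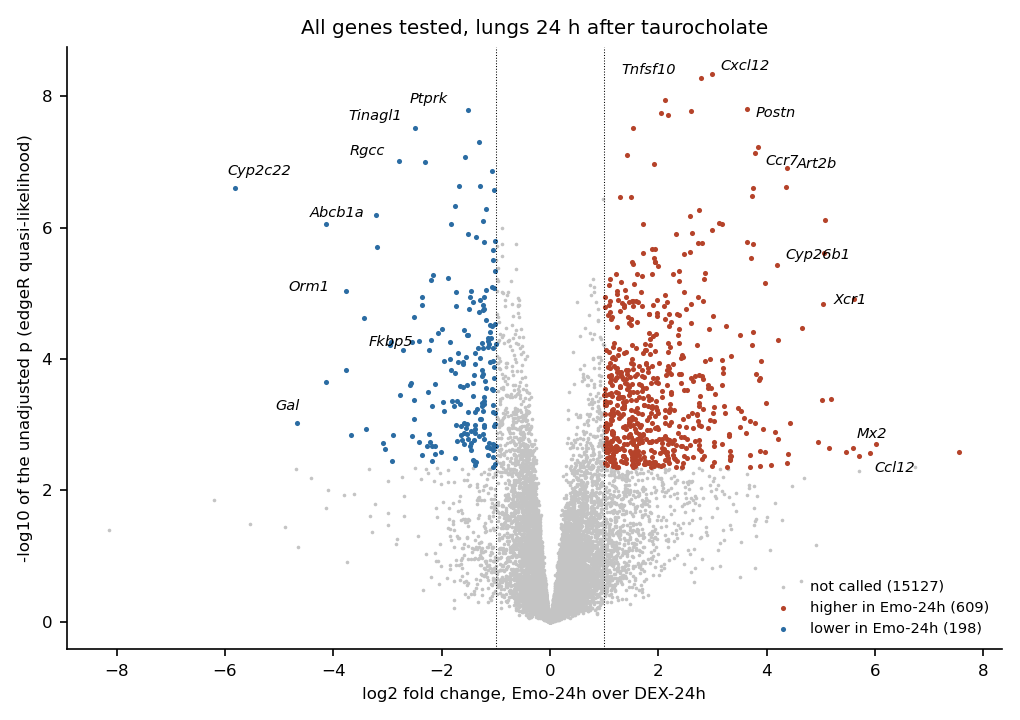
Each point is 1 of 15934 genes; the horizontal axis is the log2 fold change of Emo-24h over DEX-24h and the vertical axis is -log10 of the unadjusted p of edgeR's quasi-likelihood test (3 rats per group). The 609 genes higher and 198 genes lower in Emo-24h are coloured, dotted lines mark 2-fold, and the interferon-induced genes such as Mx2 have large fold changes with modest p-values, while Cxcl12 and Postn have both.

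Targets of the glucocorticoid receptor were lower in Emo-24h than in DEX-24h. Of 37 tested genes on this list, 17 were down-regulated and 0 up-regulated, beside 1.24% and 3.82% of all genes. The median log2 fold change of the list was -1.12. Fkbp5, a chaperone partner of the receptor and one of its most used reporter genes (chromosome 20), had 26.7, 21.9 and 64.8 FPKM in the 3 Emo-24h lungs. It had 169, 177 and 157 FPKM in the 3 DEX-24h lungs (log2 fold change -2.19, SE 0.44, adjusted p = 0.00332). All DEX-24h lungs lay far above all Emo-24h lungs, and replicate 3 was the highest of Emo-24h. Rgcc, a regulator of the cell cycle, had 90.7, 110 and 231 FPKM in Emo-24h against 926, 904 and 1051 FPKM in DEX-24h (log2 fold change -2.78, SE 0.37, adjusted p = 9.36e-05). Sgk1, a kinase that raises sodium transport, had 35.9, 25.5 and 35.1 against 119, 79.0 and 75.6 FPKM (log2 fold change -1.57, SE 0.21, adjusted p = 8.87e-05). No Emo-24h lung overlapped with a DEX-24h lung for Rgcc or Sgk1, and DEX-24h replicate 1 was the highest lung for Sgk1.

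Other down-regulated members were Ddit4, an inhibitor of mTOR signalling (log2 fold change -1.82, SE 0.40), the arrestin-related Arrdc2 (-1.69, SE 0.36) and Nfkbia, the inhibitor of NF-kB (-1.61, SE 0.35). Errfi1, Zbtb16, Trim63, Dusp1, Pdk4, Map3k6, Glul, Hif3a and Cdkn1a were down-regulated as well, at log2 fold changes from -2.37 (Hif3a) to -1.12 (Glul). Tsc22d3, which encodes the anti-inflammatory protein GILZ, is present under 2 gene identifiers, and both were down-regulated, by 1.21 and 1.06 on the log2 scale. Per1, a clock gene that is also a receptor target, missed the 2-fold threshold at -0.77 (SE 0.20, adjusted p = 0.0166). Tgm2, at 0.79, was the single member with a positive value. The number of down-regulated members was 9 without Emo-24h replicate 1 or replicate 2, 20 without Emo-24h replicate 3, and 13, 14 and 10 without DEX-24h replicates 1, 2 and 3. Hif3a and Zbtb16 lost the call in 5 of these 6 fits, Trim63, Dusp1, Pdk4 and Cdkn1a in 4, Map3k6 in 3 and the Tsc22d3 identifiers in 2 and 1, with adjusted p up to 0.235 (Trim63). Fkbp5, Rgcc, Sgk1, Ddit4, Arrdc2, Nfkbia, Errfi1 and Glul kept it in all 6.

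The reference groups place these levels. For the same 37 genes, the median log2 fold change was 0.34 in DEX-24h against SAP-24h, with 3 members higher and 3 lower. Among all genes, 594 were DEGs in that comparison (3.73%), with 1.18% higher and 2.55% lower. In Emo-24h against SAP-24h the list's median was -0.78, with 0 members higher and 10 lower, beside 508 DEGs among all genes (3.19%), with 1.93% higher and 1.26% lower. Against Sham-24h, the median was 0.44 in SAP-24h with 9 members higher and 0 lower (1.98% and 3.01% of all genes), 0.97 in DEX-24h with 6 higher and 0 lower (0.992% and 3.16% of all genes), and -0.20 in Emo-24h with 0 called. Members of the list were thus higher in SAP-24h than in Sham-24h without either drug. These comparisons share libraries with each other and with the drug comparison. Fkbp5 had 57.7, 99.2 and 73.9 FPKM in SAP-24h and 33.6, 110 and 39.9 FPKM in Sham-24h, so that 1 rat of each Emo-24h and Sham-24h group was well above its other two. Rgcc had 124, 249 and 245 FPKM in SAP-24h, above 2 of 3 Emo-24h lungs and below all DEX-24h lungs.

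Promoter sequence was examined because the receptor binds a palindrome with 3 bases between its arms. In RefSeq promoters of 300 bases (assembly GRCr8, 250 before and 50 after the start of the gene), the motif of G, any base, ACA, 3 free bases, TGT, any base and C, on either strand, was found in 2 of 29 list members with a promoter entry (6.90%) and in 0.439% of all 33469 promoters. Both members, Trim63 and Map3k6, were down-regulated, so that the motif was in 2 of 15 called members and 0 of 14 not called. The shorter motif of ACA, 3 free bases and TGT, which the longer one contains, was found in 4 of 29 members (13.8%) and in 6.86% of all promoters. The 4 were Trim63, Map3k6, Glul and Lcn2, which are 3 of 15 called members and 1 of 14 not called (Lcn2). The promoters of Trim63 (muscle RING-finger ubiquitin ligase, chr5:151816986-151817285, plus strand) and Map3k6 (a MAP kinase kinase kinase, chr5:150723995-150724294, plus strand) are shown with the longer motif in capitals.
Trim63: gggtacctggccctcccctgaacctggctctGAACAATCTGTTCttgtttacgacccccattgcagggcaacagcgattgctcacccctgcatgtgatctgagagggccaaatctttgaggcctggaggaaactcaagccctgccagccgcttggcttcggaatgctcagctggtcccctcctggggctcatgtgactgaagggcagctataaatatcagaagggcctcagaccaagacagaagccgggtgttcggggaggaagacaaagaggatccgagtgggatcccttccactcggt
Map3k6: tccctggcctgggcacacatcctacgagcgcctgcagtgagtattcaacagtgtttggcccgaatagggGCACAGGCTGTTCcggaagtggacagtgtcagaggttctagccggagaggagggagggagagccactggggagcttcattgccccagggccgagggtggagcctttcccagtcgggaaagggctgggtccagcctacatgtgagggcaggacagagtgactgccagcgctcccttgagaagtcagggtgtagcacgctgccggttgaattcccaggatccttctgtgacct
Trim63 had 2.24, 2.92 and 2.16 FPKM in Emo-24h and 11.1, 3.41 and 4.94 FPKM in DEX-24h (log2 fold change -1.48, SE 0.43, adjusted p = 0.0314). Map3k6 had 8.43, 7.48 and 17.1 against 24.9, 23.1 and 26.3 FPKM (-1.21, SE 0.32, adjusted p = 0.0202). DEX-24h replicate 1 was the highest for Trim63, whereas the 3 DEX-24h lungs were close together for Map3k6.

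The largest differences among down-regulated genes were in genes outside that list. Abcb1a encodes P-glycoprotein, the efflux pump that exports many drugs, glucocorticoids among them (chromosome 4). It had 3.88, 7.22 and 5.34 FPKM in Emo-24h and 65.8, 32.5 and 47.5 FPKM in DEX-24h (log2 fold change -3.21, SE 0.48, adjusted p = 3.00e-04). SAP-24h (3.23 to 3.69 FPKM) and Sham-24h (5.36 to 9.30 FPKM) lay with Emo-24h, and DEX-24h stood alone. Orm1, the acute phase protein alpha-1-acid glycoprotein, had 1.44, 1.34 and 10.3 FPKM in Emo-24h and 61.5, 58.1 and 54.9 FPKM in DEX-24h (-3.76, SE 0.67, adjusted p = 0.00133). Cyp2c22, a cytochrome P450, was near 0 in Emo-24h (0.02, 0.00 and 0.07 FPKM) and at 1.91, 2.01 and 1.28 FPKM in DEX-24h (-5.81, SE 0.81, adjusted p = 1.60e-04). Its fold depends on few reads in Emo-24h. In all of these the groups were separate, with Emo-24h replicate 3 the highest of its group for Orm1 and Cyp2c22.

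Cytl1, a secreted cytokine-like protein, had 41.03, 18.3 and 56.1 against 426, 214 and 215 FPKM (log2 fold change -2.94, SE 0.60, adjusted p = 0.00342). The neuropeptide galanin (Gal) had 2.06, 0.78 and 30.04 against 200, 415 and 218 FPKM (-4.68, SE 1.24, adjusted p = 0.0193), and its call was lost without Emo-24h replicate 1, Emo-24h replicate 2 or DEX-24h replicate 2 (adjusted p up to 0.0993). Emo-24h thus spanned a wide range for galanin without reaching DEX-24h. With smaller spread, Tinagl1, a matrix protein, had 42.1, 34.5 and 61.1 against 284, 228 and 231 FPKM (-2.49, SE 0.31, adjusted p = 4.89e-05). Ptprk, a receptor tyrosine phosphatase, had 11.9, 10.5 and 13.4 against 30.2, 28.8 and 38.6 FPKM (-1.51, SE 0.18, adjusted p = 3.87e-05). Those 2 genes, with Mfsd2a (a lysophospholipid transporter, -2.31), C1qtnf1 (-1.31), Sgk1 and Rgcc, had the smallest p-values among down-regulated genes. Further large differences were those of Acsbg1, an acyl-CoA synthetase (-3.19, SE 0.51), and Scgb2a1, a secretoglobin (-3.76, SE 0.83), both called in all fits without 1 library. Nccrp1 (-4.13), the homocysteine enzyme Cbs (-3.67), the water channel Aqp8 (-2.91) and the growth factor Areg (-2.90) were also down-regulated, but lost the call in 3 to 5 of the 6 fits without 1 library, with adjusted p up to 0.287 (Areg).

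Genes that interferon induces were higher in Emo-24h, with a wide spread between rats. Of 28 tested members, 13 were up-regulated and 0 down-regulated, beside 3.82% and 1.24% of all genes. The median log2 fold change of the list was 2.84, and all 28 values were positive. Mx1, which blocks the replication of viruses (chromosome 11), had 96.9, 16.5 and 97.0 FPKM in Emo-24h and 2.10, 1.29 and 1.17 FPKM in DEX-24h (log2 fold change 5.46, SE 1.62, adjusted p = 0.0355). Rsad2, the antiviral enzyme viperin, had 25.4, 5.56 and 55.7 against 1.66, 1.25 and 1.11 FPKM (4.39, SE 1.31, adjusted p = 0.0376). Gbp5, a guanylate-binding protein, had 32.1, 15.7 and 35.1 against 3.98, 3.68 and 2.39 FPKM (2.98, SE 0.70, adjusted p = 0.00899). Replicate 2 was the lowest of Emo-24h for each of these, and still above all DEX-24h lungs.

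Mx2 (log2 fold change 5.59), the RNA-sensing enzyme Oas2 (5.15), its relative Oasl (3.70) and Gbp2 (2.92) were also up-regulated members. So were the RNA helicase gene Ddx58 (2.28), Irgm (2.16), Parp14 (1.87), Ifi27 (1.84) and the immunoproteasome subunit Psmb8 (1.52). Isg15, a ubiquitin-like modifier, had 162, 36.6 and 223 against 6.98, 5.21 and 3.58 FPKM and did not pass the test (4.69, SE 1.57, adjusted p = 0.0635). Cxcl10, Irf7, Ifit1, Ifit2 and Ifit3 did not pass either, at values from 2.68 (Ifit2) to 4.29 (Ifit1). The number of calls moved with the libraries fitted, the test and the design. It was 26 of 28 when only the 6 libraries were fitted, 21 with DESeq2, 5 with a replicate block, and 1, 5 and 3 without Emo-24h replicates 1, 2 and 3. Without DEX-24h replicates 1, 2 and 3 it was 2, 1 and 0. Mx1, Mx2, Oasl, Irgm and Ifi27 lost the call without any single one of the 6 libraries (adjusted p up to 0.204). Oas2, Ddx58, Parp14, Psmb8 and Rsad2 lost it in 5 of the 6 fits and Gbp2 in 4, whereas Gbp5 lost it only without DEX-24h replicate 3 (adjusted p = 0.0601). In SAP-24h the members were spread as well: Mx1 had 7.79, 2.63 and 1.45 FPKM there and 4.09, 18.5 and 2.84 FPKM in Sham-24h. Con-24h replicate 1, a rat with neither taurocholate nor a drug, had a mean log2(FPKM + 1) of 5.58 over the 28 members, within the range of Emo-24h (4.05 to 5.72), whereas Con-24h replicates 2 and 3 had 2.85 and 2.59. The list's median log2 fold change was 1.50 in Emo-24h against SAP-24h and -0.93 in DEX-24h against SAP-24h, with 1 and 0 members called. Reads that map to several copies were discarded by the authors, so that levels of near-identical families such as Mx, Oas and Gbp genes are uncertain.

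A short element that interferon-regulated transcription factors bind, searched on both strands as GAAA, 2 free bases and GAAA, marked the promoters of this list. It was found in 14 of 19 members with a RefSeq promoter entry (73.7%) and in 3.92% of all 33469 promoters. Members with the motif included 7 of 9 called genes and 7 of 10 genes that were not called. Promoters of 4 up-regulated members are shown with the motif in capitals (GRCr8): Gbp5 at chr2:233910749-233911048 on the plus strand, Gbp2 at chr2:234005477-234005776 on the plus strand, Rsad2 at chr6:48788071-48788370 on the minus strand and Parp14 at chr11:78407884-78408183 on the plus strand.
Gbp5: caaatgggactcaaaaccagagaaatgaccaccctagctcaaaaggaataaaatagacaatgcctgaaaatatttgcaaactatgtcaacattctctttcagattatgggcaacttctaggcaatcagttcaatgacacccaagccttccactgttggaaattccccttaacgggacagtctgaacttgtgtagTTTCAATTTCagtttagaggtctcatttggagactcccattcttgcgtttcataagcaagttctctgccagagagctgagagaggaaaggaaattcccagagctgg
Gbp2: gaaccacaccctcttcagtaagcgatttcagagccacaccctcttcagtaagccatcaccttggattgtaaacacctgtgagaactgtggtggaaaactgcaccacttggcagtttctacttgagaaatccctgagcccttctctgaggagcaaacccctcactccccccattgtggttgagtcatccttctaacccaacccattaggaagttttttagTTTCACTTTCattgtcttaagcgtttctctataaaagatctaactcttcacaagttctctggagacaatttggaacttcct
Rsad2: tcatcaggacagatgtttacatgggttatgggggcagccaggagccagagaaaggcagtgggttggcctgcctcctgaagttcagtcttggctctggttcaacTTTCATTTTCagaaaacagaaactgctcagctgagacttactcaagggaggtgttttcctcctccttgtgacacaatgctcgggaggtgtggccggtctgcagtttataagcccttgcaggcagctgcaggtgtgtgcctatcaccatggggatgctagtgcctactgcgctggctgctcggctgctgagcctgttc
Parp14: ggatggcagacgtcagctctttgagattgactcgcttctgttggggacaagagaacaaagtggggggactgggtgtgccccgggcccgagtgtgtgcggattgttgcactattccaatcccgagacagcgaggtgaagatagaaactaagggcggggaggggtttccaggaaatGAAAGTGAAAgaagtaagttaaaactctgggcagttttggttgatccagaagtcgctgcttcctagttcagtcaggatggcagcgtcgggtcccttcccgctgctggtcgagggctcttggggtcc
From the start of the gene, the matches began at -56 in Gbp5, -31 in Gbp2, -147 in Rsad2 and -76 in Parp14. In Gbp5, Gbp2 and Rsad2 the motif reads on the opposite strand. Gbp2, which lies on the same chromosome as Gbp5, had 85.2, 39.1 and 79.9 FPKM in Emo-24h and 10.2, 8.25 and 7.32 FPKM in DEX-24h (log2 fold change 2.92, SE 0.79, adjusted p = 0.0217).

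**Figure D2:**
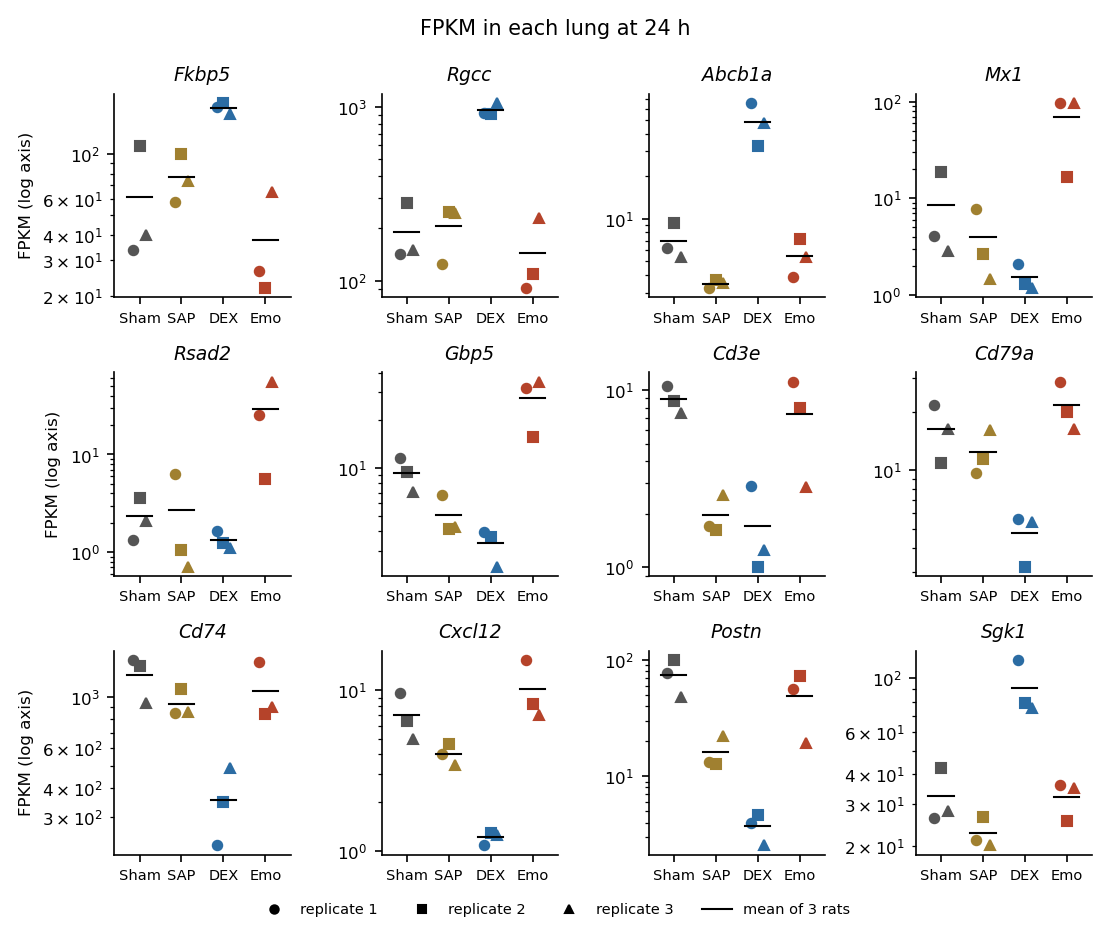
FPKM (log axis) of 12 genes in each of the 3 Sham-24h, SAP-24h, DEX-24h and Emo-24h lungs, with symbols for replicates 1 to 3 and a line at the mean. Fkbp5, Rgcc, Abcb1a and Sgk1 are highest in all 3 DEX-24h lungs, and Mx1, Rsad2 and Gbp5 are higher in every Emo-24h lung than in any DEX-24h lung, with Emo-24h replicate 2 the lowest of its group.

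Lymphocyte genes were higher in Emo-24h. Of 20 T cell genes, 15 were up-regulated and 0 down-regulated (median log2 fold change 1.98), beside 3.82% and 1.24% of all genes. Cd3e, a chain of the T cell receptor complex, had 11.2, 7.93 and 2.84 FPKM in Emo-24h and 2.87, 1.01 and 1.25 FPKM in DEX-24h (log2 fold change 2.00, SE 0.51, adjusted p = 0.0156). Ccr7, the receptor that guides naive T cells and mature dendritic cells to lymph nodes, had 7.23, 5.92 and 2.36 against 0.23, 0.29 and 0.55 FPKM (3.78, SE 0.49, adjusted p = 8.81e-05). The adhesion receptor gene Cd2 had 7.68, 6.71 and 2.51 against 1.42, 0.89 and 0.62 FPKM (2.43, SE 0.51, adjusted p = 0.00455). In Emo-24h replicate 3 these genes were lowest, so that Cd3e overlapped with DEX-24h, while Ccr7 and Cd2 did not.

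The coreceptor genes of both T cell classes were up-regulated, Cd4 at a log2 fold change of 1.45 and Cd8a, Cd8b at 2.92 and 2.18, together with the signalling genes Lck (2.19) and Zap70 (1.96). Outside the list, Art2b, an ADP-ribosyltransferase on the surface of rat T cells, had 1.36, 1.11 and 0.56 against 0.03, 0.06 and 0.04 FPKM (4.37, SE 0.59, adjusted p = 1.02e-04). The count of 15 T cell genes became 8, 7 and 16 without Emo-24h replicates 1, 2 and 3, 13, 9 and 9 without DEX-24h replicates 1, 2 and 3, and 9 with the 6 libraries fitted alone. Cd8b lost its call in 5 of the 6 fits without 1 library, Cd3e and Zap70 in 4, Cd4 in 3 and Cd8a without DEX-24h replicate 3 (adjusted p up to 0.223).

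Of 13 natural killer and cytotoxic genes, 7 were up-regulated and 0 down-regulated (median 2.17), beside 3.82% and 1.24% of all genes. Prf1, which encodes the pore-forming perforin, had 33.6, 32.6 and 6.54 FPKM in Emo-24h and 7.94, 3.41 and 1.61 FPKM in DEX-24h (log2 fold change 2.39, SE 0.64, adjusted p = 0.0207). Tbx21, the transcription factor T-bet, had 5.42, 5.05 and 0.99 against 1.02, 0.34 and 0.35 FPKM (2.64, SE 0.60, adjusted p = 0.00764). Replicates 1 and 2 of Emo-24h lay above all DEX-24h lungs and replicate 3 within their range. Ncr1, a receptor of natural killer cells, did not pass (2.05, SE 0.69, adjusted p = 0.0633). The count for this list was 1 without Emo-24h replicate 1, 1 without Emo-24h replicate 2, 8 without Emo-24h replicate 3, and 9, 1 and 0 without DEX-24h replicates 1, 2 and 3. With the 6 libraries alone it was 1. Prf1 lost its call in 4 of the 6 fits without 1 library (adjusted p up to 0.116) and Tbx21 without DEX-24h replicate 3 (adjusted p = 0.0562).

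B cell genes were also higher in Emo-24h. Of 11 tested, 7 were up-regulated and 0 down-regulated (median log2 fold change 2.20), beside 3.82% and 1.24% of all genes. In each fit without 1 library, 5 or 6 of the 11 were called. Ms4a1 was called in 2 of these fits and Blk in 0 (adjusted p up to 0.145). Cd79a, a chain of the B cell receptor, had 28.6, 19.96 and 16.3 FPKM in Emo-24h against 5.6, 3.19 and 5.39 FPKM in DEX-24h (2.12, SE 0.40, adjusted p = 0.00201). Bank1, a scaffold protein of B cells that is not on the list, had 5.83, 6.15 and 4.43 against 1.32, 0.93 and 1.31 FPKM (2.13, SE 0.25, adjusted p = 3.87e-05). No Emo-24h lung overlapped with a DEX-24h lung for either gene. Pax5 (3.18), Cd79b (2.71), Ms4a1 (2.41), Cd22 (2.20) and Blk (1.18) were up-regulated, and the plasma cell gene Mzb1 (0.87) and the immunoglobulin gene Ighm (0.97) did not pass. SAP-24h had 9.71, 11.4 and 16.2 FPKM of Cd79a, between the drug groups, while for Cd3e SAP-24h (1.63 to 2.58 FPKM) lay with DEX-24h and Sham-24h (7.41 to 10.6 FPKM) near Emo-24h replicates 1 and 2.

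**Figure D3:**
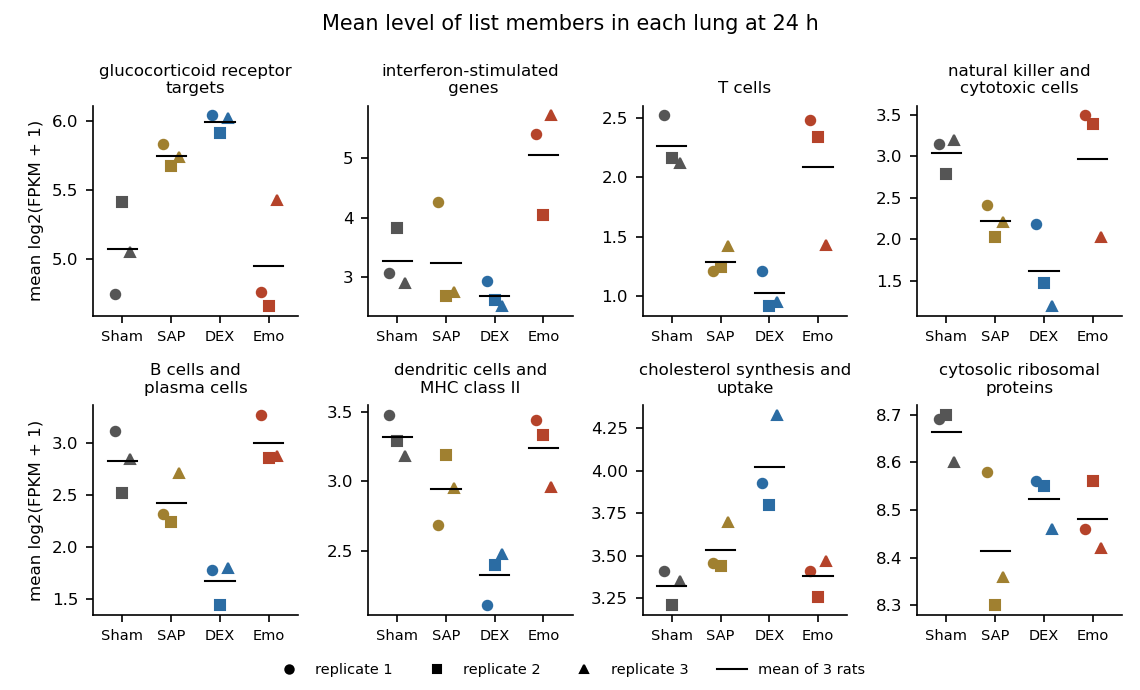
Mean log2(FPKM + 1) over the tested members of 8 gene lists in each lung at 24 hours, for Sham-24h, SAP-24h, DEX-24h and Emo-24h, with symbols for replicates 1 to 3 and a line at the mean. Emo-24h replicate 3 lies nearest to DEX-24h for T cell, natural killer cell and glucocorticoid receptor target genes (1.43, 2.03 and 5.43), Emo-24h replicate 2 is lowest for interferon-stimulated genes (4.05), and ribosomal protein genes differ little (8.42 to 8.56 in both drug groups).

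Genes of antigen presentation were higher in Emo-24h as well. Of 15 tested genes of dendritic cells and MHC class II, 9 were up-regulated and 0 down-regulated (median log2 fold change 1.70). Among all genes the shares were 3.82% and 1.24%. In every fit without 1 library, 7 to 9 of the 15 were called. Cd74, the invariant chain of MHC class II, had 1418, 847 and 905 FPKM in Emo-24h and 226, 350 and 491 FPKM in DEX-24h (1.50, SE 0.29, adjusted p = 0.00201). RT1-Db1, a class II beta chain, had 63.1, 55.0 and 40.2 against 8.45, 10.9 and 20.8 FPKM (1.91, SE 0.38, adjusted p = 0.00306). Xcr1, which marks cross-presenting dendritic cells, was low, with 0.77, 0.62 and 0.07 against 0.01, 0.01 and 0.02 FPKM (5.04, SE 0.93, adjusted p = 0.00155), and its ligand Xcl1 was up-regulated as well (3.90, SE 0.84, adjusted p = 0.00512). Clec9a, another marker of these cells, rose by 2.60 (SE 0.48), and Fscn1, the actin-bundling protein of mature dendritic cells, by 2.23 (SE 0.43). Ciita, the master regulator of class II genes, was up-regulated at 1.70. RT1-DMa and RT1-DMb, which load peptides, had values of -0.27 and 0.42 and did not pass. Class II genes of the RT1 locus are near-identical in part, and the discarding of multi-mapped reads makes their levels uncertain.

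Of 21 macrophage and monocyte genes, 2 were DEGs (9.52%), and of 19 neutrophil genes 3 (15.8%), beside 5.06% of all genes tested. The macrophage and monocyte genes were Cx3cr1 (log2 fold change 3.73, SE 0.53, adjusted p = 1.89e-04) and the Fc receptor gene Fcgr1a (1.77, SE 0.38, adjusted p = 0.00542), both up-regulated, and the list's median was -0.33. Cx3cr1, the fractalkine receptor of patrolling monocytes and of natural killer cells, had 6.37, 4.64 and 1.77 FPKM in Emo-24h and 0.43, 0.13 and 0.33 FPKM in DEX-24h. Cd68, present in most macrophages, was at 69.0 to 94.8 and 41.9 to 70.9 FPKM, overlapping between groups. The 3 neutrophil genes were up-regulated. Over the 19 neutrophil genes the median was 0.72, and 16 had a positive value, as had 8094 of all 15934 genes tested. The mean log2(FPKM + 1) over these 19 genes was 4.79, 5.08 and 4.86 in Emo-24h and 4.61, 3.95 and 4.26 in DEX-24h, without overlap. The up-regulated ones included Ncf1, a subunit of the NADPH oxidase that macrophages use too (1.55, SE 0.27, adjusted p = 0.00115), and the formyl peptide receptor Fpr2 (5.03, SE 1.23, adjusted p = 0.0118), which lost its call without Emo-24h replicate 2 or DEX-24h replicate 3 (adjusted p up to 0.0849). The neutrophil receptor Cxcr2, with 14.5, 15.4 and 15.04 against 17.2, 9.42 and 11.2 FPKM, did not pass (0.19, SE 0.73, adjusted p = 0.932), nor did the abundant S100a8 (1.06) and S100a9 (1.44). Cfp, the complement protein properdin made by myeloid cells, had 51.7, 66.2 and 40.9 against 12.96, 13.3 and 10.1 FPKM (2.05, SE 0.25, adjusted p = 3.87e-05), with no overlap. Of 11 mast cell and eosinophil genes 1 was up-regulated (9.09%), the mast cell carboxypeptidase Cpa3 (2.23, SE 0.53), which was lost without Emo-24h replicate 2, DEX-24h replicate 2 or DEX-24h replicate 3 (adjusted p up to 0.0731).

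Chemokines, which attract leukocytes, were partly higher in Emo-24h. Of 29 tested, 10 were up-regulated and 0 down-regulated, beside 3.82% and 1.24% of all genes. The median log2 fold change of the list was 1.53. Cxcl12, which retains leukocytes and progenitors through CXCR4 (chromosome 4), had 15.4, 8.17 and 6.97 FPKM in Emo-24h against 1.08, 1.29 and 1.26 FPKM in DEX-24h (2.99, SE 0.33, adjusted p = 3.87e-05). It had the smallest p-value of all genes tested. Ccl19, a ligand of Ccr7, had 21.4, 10.1 and 5.10 against 1.15, 0.69 and 1.61 FPKM (3.32, SE 0.98, adjusted p = 0.0351). Ccl21, the other ligand of Ccr7, was up-regulated at 2.18, as were Ccl4 (2.46), Ccl22 (2.53), Ccl5 (2.00), Ccl6 (1.4) and Cxcl9 (3.00). Ccl12, a monocyte attractant, had the largest log2 fold change that the naming rule picked, 5.91 (SE 1.76, adjusted p = 0.0365), on 6.91, 1.52 and 0.36 against 0.03, 0.00 and 0.09 FPKM. Emo-24h replicate 1 was the highest for Cxcl12, Ccl19 and Ccl12. The neutrophil attractants Cxcl1 (0.56), Cxcl2 (-0.25) and Cxcl6 (-0.95) did not pass. The list's count was 4 without Emo-24h replicate 1 or 2, 10 without Emo-24h replicate 3, and 6, 4 and 4 without DEX-24h replicates 1, 2 and 3. Ccl12, Ccl19 and Cxcl9 were each called in 1 of those 6 fits and Ccl4, Ccl5 and Ccl22 in 2 (adjusted p up to 0.326), Ccl6 in 5, and Cxcl12 in all of them.

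Of 30 classical cytokine and NF-kB genes, 5 were up-regulated and 2 down-regulated (median 0.52), beside 3.82% and 1.24% of all genes. The alarmin Il33, stored in the nuclei of epithelial and stromal cells, had 139, 121 and 67.2 FPKM in Emo-24h and 15.7, 16.6 and 18.7 FPKM in DEX-24h (log2 fold change 2.60, SE 0.31, adjusted p = 3.87e-05). Vcam1, which binds leukocytes to endothelium (1.77, SE 0.37, adjusted p = 0.00402), the pattern receptor Tlr2 (1.84), the inflammasome sensor Nlrp3 (1.29) and the macrophage growth factor Csf1 (1.14) were the other up-regulated members. Tlr2 was called in 1 of the 6 fits without 1 library, Socs2 in 2 and Nlrp3 in 5 (adjusted p up to 0.0873, 0.130 and 0.0715). Nfkbia, given above, and the cytokine suppressor Socs2 (-1.22) were the 2 down-regulated ones. Il1b had 27.5, 16.1 and 33.7 against 28.4, 16.1 and 6.21 FPKM and overlapped (0.54, SE 0.67, adjusted p = 0.733), and Il6 was below 0.2 FPKM in all 6 lungs. Tnfsf10, the death ligand TRAIL, had 55.8, 39.03 and 34.3 against 5.19, 7.09 and 5.52 FPKM (2.78, SE 0.31, adjusted p = 3.87e-05). Every Emo-24h lung lay above every DEX-24h lung for Tnfsf10.

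**Figure D4:**
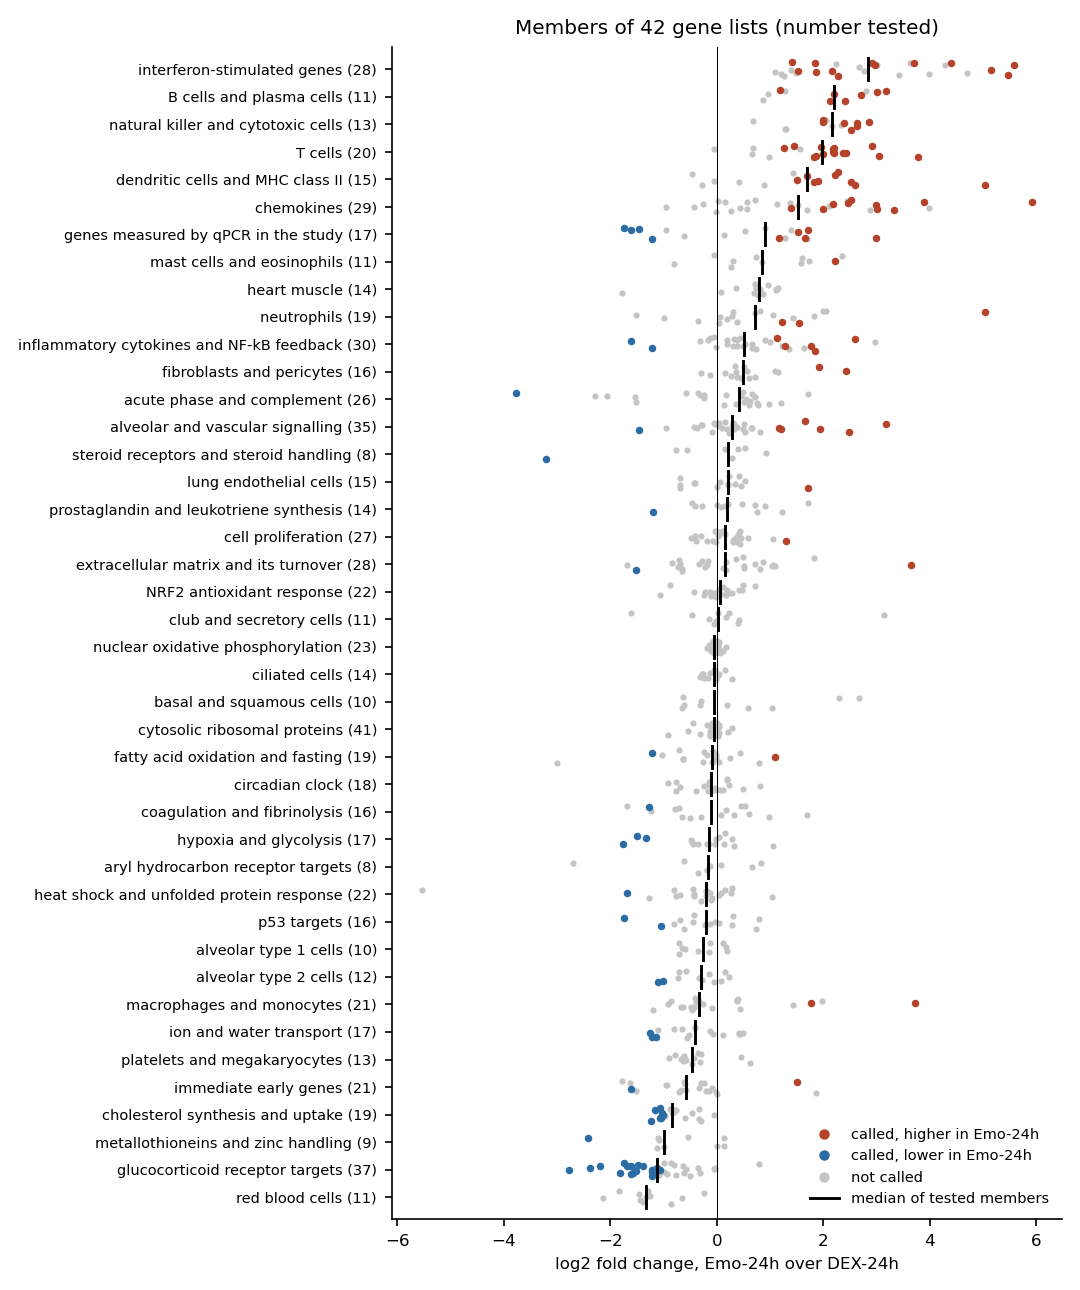
Log2 fold change of Emo-24h over DEX-24h for every tested member of 42 gene lists, ordered by the median of each list (black line), with the number tested in brackets. Called members are coloured; interferon-stimulated, lymphocyte, MHC class II and chemokine genes have medians from 1.53 to 2.84, and glucocorticoid receptor targets one of -1.12.

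Some genes of stroma and vessels differed between the drugs. Postn (periostin, a matrix protein of activated fibroblasts) had 56.1, 72.3 and 19.3 FPKM in Emo-24h and 3.94, 4.62 and 2.55 FPKM in DEX-24h (log2 fold change 3.64, SE 0.43, adjusted p = 3.87e-05). Apln, a peptide of endothelial tip cells, had 11.5, 12.8 and 6.87 against 1.04, 0.79 and 1.45 FPKM (3.18, SE 0.48, adjusted p = 3.40e-04). Its receptor gene Aplnr had 36.01, 39.4 and 19 against 4.14, 7.71 and 4.14 FPKM (2.48, SE 0.40, adjusted p = 6.24e-04). Ligand and receptor were both higher in all Emo-24h lungs, with replicate 3 the lowest of the group. The semaphorin receptor Plxnd1 (1.93, SE 0.31, adjusted p = 5.65e-04) and its partner Nrp1 (1.17, SE 0.25, adjusted p = 0.00478), the receptor Fgfr4 (1.65, SE 0.38, adjusted p = 0.00826) and Wnt5a (1.20, SE 0.27, adjusted p = 0.00760) were up-regulated too. With Sema7a down-regulated (-1.45), 6 of 35 alveolar and vascular signalling genes rose and 1 fell (median 0.29), where 3.82% of all genes tested rose and 1.24% fell. Car4, a carbonic anhydrase of alveolar capillaries, was the 1 up-regulated gene of 15 endothelial markers (1.71, SE 0.40), a share of 6.67% near that of all genes (5.06%), while Cdh5 (0.24) and Kdr (0.01) did not pass. Without Emo-24h replicate 2 the calls of Nrp1, Fgfr4 and Car4 were lost, without Emo-24h replicate 1 that of Wnt5a, and without DEX-24h replicate 3 those of Wnt5a and Car4 (adjusted p up to 0.0655). Sema7a was called in 2 of the 6 fits (adjusted p up to 0.152). Among 16 fibroblast and pericyte markers the median was 0.49, 14 values were positive, and the mean log2(FPKM + 1) was 4.51 to 5.0 in Emo-24h and 4.10 to 4.23 in DEX-24h, without overlap. Of these markers, Lum (2.42) and Inmt (1.92) were up-regulated, the latter called in 1 of the 6 fits without 1 library (adjusted p up to 0.256). Of 28 matrix genes, Postn rose and the collagen cross-linking enzyme Lox fell (-1.51, SE 0.30, adjusted p = 0.00297), and this share of 7.14% was near that of all genes too. Cyp26b1, which degrades retinoic acid, had 24.5, 19.5 and 11.2 against 0.92, 1.11 and 0.80 FPKM (4.20, SE 0.70, adjusted p = 8.02e-04), and Sfrp2, a modulator of Wnt signalling, 7.42, 8.68 and 1.98 against 0.15, 0.50 and 0.45 FPKM (3.97, SE 0.69, adjusted p = 0.00114).

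Genes of cholesterol synthesis and uptake were lower in Emo-24h by about the size of the threshold. Of 19 tested, 7 were down-regulated and 0 up-regulated, beside 1.24% and 3.82% of all genes. All 19 values were negative, and the median of the list was -0.84. Msmo1, a sterol oxidase of the pathway, had 16.8, 14.6 and 18.2 FPKM in Emo-24h and 30.7, 27.8 and 41.2 FPKM in DEX-24h (log2 fold change -1.07, SE 0.14, adjusted p = 1.11e-04). Its fold fell under the threshold without Emo-24h replicate 2 or DEX-24h replicate 3, with adjusted p up to 0.00167. Idi1 (-1.24), Cyp51 (-1.06), Fdps (-1.03) and Sqle (-1.0) were also down-regulated. Of the 6 fits without 1 library, Idi1 lost the call in 4 (adjusted p up to 0.123), Fdps and Sqle in 3 and Cyp51 in 2. The groups did not overlap for 17 of the 19 genes, against 29.4% of all genes tested. The count was 14 with no fold threshold, 3, 2 and 8 without Emo-24h replicates 1, 2 and 3, and 8, 9 and 1 without DEX-24h replicates 1, 2 and 3. For the same genes, the median was 0.51 in DEX-24h against SAP-24h and -0.21 in Emo-24h against SAP-24h, with 0 calls in either by edgeR's test. Against Sham-24h it was 0.91 in DEX-24h, with 7 of 19 higher (0.992% of all genes). The median was 0.31 in SAP-24h and 0.03 in Emo-24h, with 0 calls in SAP-24h and in Emo-24h.

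Of 12 alveolar type 2 genes, 2 were down-regulated (16.7%) and 0 up-regulated (median -0.30), beside 1.24% of all genes down-regulated. Sftpb, the surfactant protein needed for film formation, was down-regulated, with 4230, 3865 and 6115 FPKM in Emo-24h against 8150, 9931 and 11371 FPKM in DEX-24h (log2 fold change -1.11, SE 0.24, adjusted p = 0.00521). Ctsh, a cathepsin that processes it, was at -1.0 (SE 0.29, adjusted p = 0.0321) with overlapping groups. Sftpb lost the call without Emo-24h replicate 2, and Ctsh in 4 of the 6 fits without 1 library (adjusted p up to 0.162). Sftpc (0.23), Sftpa1 (-0.58) and Abca3 (-0.27) did not pass. Ion transport genes had 3 down-regulated members of 17, among them the chloride transporter Slc26a9 (-1.25, SE 0.28) and the sodium pump subunit Atp1b1 (-1.22, SE 0.30). The sodium channel subunits Scnn1a, Scnn1b and Scnn1g were at -0.56, -0.52 and -0.41 and did not pass. Of 17 hypoxia and glycolysis genes, Adm, a vasodilator peptide (-1.76, SE 0.39), Bnip3 (-1.49, SE 0.28) and Pfkfb3 (-1.33, SE 0.28) were down-regulated, and the median was -0.15. Atp1b1 was called in 3 of the 6 fits and Adm lost its call without Emo-24h replicate 2 (adjusted p up to 0.0793 and 0.0514). Psat1, an enzyme of serine synthesis, was lower as well (-1.68, SE 0.23, adjusted p = 1.60e-04), as were Ptgs1, the constitutive cyclooxygenase (-1.19, SE 0.23), and F3, tissue factor (-1.28, SE 0.33). F3 rested on DEX-24h replicate 3 at 224 FPKM, with 79.0 and 70.4 FPKM in the others, and lost its call without that library or without Emo-24h replicate 1 or 2 (adjusted p up to 0.262).

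Several lists had no DEG. They were the markers of alveolar type 1 cells (10 genes, median -0.25), ciliated cells (14, -0.05), club cells (11, 0.02), basal cells (10, -0.05), platelets (13, -0.47), red blood cells (11, -1.32) and heart muscle (14, 0.80). The circadian clock (18, -0.10), aryl hydrocarbon receptor targets (8, -0.16), the NRF2 antioxidant response (22, 0.06), ribosomal proteins (41, -0.06) and nuclear genes of oxidative phosphorylation (23, -0.05) also had 0. All 11 red blood cell values were negative, and the mean log2(FPKM + 1) over these genes was 3.10, 2.28 and 2.22 in Emo-24h and 3.34, 3.33 and 3.18 in DEX-24h, without overlap. Of 13 platelet values 2 were positive, and of 14 heart muscle values 13, while both lists' means overlapped between the groups. The part of blood or heart tissue in other results was not tested. At an unadjusted p under 0.05, 4 alveolar type 1, 4 basal cell, 3 NRF2, 3 aryl hydrocarbon receptor and 1 clock gene passed by edgeR's test, and 0 of the other lists. Hba1, an alpha globin, had 905, 210 and 232 FPKM in Emo-24h and 1174, 1008 and 988 FPKM in DEX-24h, without passing (-1.32, SE 0.70, adjusted p = 0.293). Cyp1a1, which the aryl hydrocarbon receptor induces, had 4.68, 2.46 and 10.1 against 14.4, 73.4 and 19.8 FPKM (-2.70, SE 0.99, adjusted p = 0.0951). Cell proliferation genes had 1 up-regulated member of 27 (3.7%, against 3.82% of all genes), the replication factor Mcm3 (1.31, lost without Emo-24h replicate 1, DEX-24h replicate 2 or DEX-24h replicate 3, adjusted p up to 0.0996), and Mki67 did not pass (0.39, SE 0.53, adjusted p = 0.763).

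Among annotated lncRNAs, 10 of 380 tested were differentially expressed (2.63%), 7 up-regulated (1.84%) and 3 down-regulated (0.789%). The down-regulated ones were AABR07066529.3 (log2 fold change -3.05, SE 0.90, adjusted p = 0.0343), AABR07004868.2 (-2.57, SE 0.59, adjusted p = 0.00812) and Rn60_X_0711.1 (-1.43, SE 0.34, adjusted p = 0.0108). AABR07004868.2 had 2.01, 1.30 and 3.41 FPKM in Emo-24h and 12.4, 12.2 and 14.04 FPKM in DEX-24h, with 22.3, 14.6 and 11.2 FPKM in SAP-24h and 1.17, 2.30 and 2.36 FPKM in Sham-24h. It was thus high in SAP-24h and DEX-24h and low in the other two groups, without overlap. AABR07065766.1 had the largest up-regulation, 4.08 (SE 1.28, adjusted p = 0.0474), on 1.27, 8.54 and 0.93 against 0.20, 0.00 and 0.38 FPKM, and was called in 1 of the 6 fits without 1 library. AABR07066529.3 was called in 1 of them, Rn60_X_0711.1 in 3 and AABR07004868.2 in all except the one without Emo-24h replicate 2 (adjusted p up to 0.155, 0.0801 and 0.0601).

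A further list held the genes that the study measured by qPCR, which it chose on these samples, so that counts over it are not independent evidence. Of 17 tested, 5 were up-regulated and 4 down-regulated (median 0.91). Cxcl12, Serpinb9 (1.53, SE 0.33, adjusted p = 0.00544), Fgfr4, Nrp1 and the lncRNA Rn60_20_0066.11 (1.71, SE 0.47, adjusted p = 0.0247) were higher in Emo-24h. Cdkn1a (-1.74, SE 0.47, adjusted p = 0.0204), Maff (-1.60, SE 0.37, adjusted p = 0.00874), Sema7a and Socs2 were lower. Without single libraries the count ranged from 2 (without Emo-24h replicate 2) to 9 (without Emo-24h replicate 3 or DEX-24h replicate 1). Cdkn1a, Sema7a, Socs2 and Rn60_20_0066.11 lost the call in 4 of the 6 fits, and Maff, Fgfr4 and Nrp1 without Emo-24h replicate 2. Tbx2 (0.54), Cebpb (-0.61), Susd2 (-0.95), Serpina1 (0.14) and the lncRNAs Rn60_7_1164.1 (0.91), AABR07051639.1 (1.29), AABR07062477.2 (1.4) and AABR07051642.1 (1.69) did not pass. Cdkn1a, the cell cycle inhibitor p21, had 26.6, 23.1 and 84.3 FPKM in Emo-24h and 126, 145 and 166 FPKM in DEX-24h, against 112 to 168 FPKM in SAP-24h, so that DEX-24h lay with SAP-24h.

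The same drugs were compared in other rats at 6 hours, after 1 dose. Fewer genes were called there, 225 of 15934 (1.41%), 121 higher (0.759%) and 104 lower (0.653%) in Emo-6h than in DEX-6h. Among mRNA genes the 6-hour count was 221 (1.42%), and it ranged from 44 without DEX-6h replicate 1 to 272 without Emo-6h replicate 2. Of the 24-hour DEGs, 98 were also called at 6 hours, 63 higher and 35 lower both times, and 0 in opposite directions. The value at 6 hours had the same sign for 520 of 609 up-regulated and 182 of 198 down-regulated genes, where 62.7% of all genes tested had the same sign. The medians at 6 hours were 0.66 and -0.72. Of these 98 genes, 20 kept the 6-hour call without each of the 6 libraries in turn, and from 23 (without DEX-6h replicate 1) to 73 (without Emo-6h replicate 2) did so in a single such fit. Xcl1 (3.90 at 24 hours and 4.44 at 6 hours) and Tnfsf10 (2.78 and 2.40) were called in all 6 of these fits, Cyp26b1 (4.20 and 3.35) in 4 and Il33 (2.60 and 1.22) in 1. The 6-hour values of Gbp2 (2.92 and 3.07) and Gbp5 (2.98 and 2.96) rested on Emo-6h replicate 3. Gbp2 had 17.4, 14.9 and 202 FPKM in Emo-6h and from 7.95 to 10.9 FPKM in DEX-6h, and Gbp5 had 5.86, 7.22 and 52.6 FPKM in Emo-6h. Without that lung, the value at 6 hours was 0.76 for Gbp2 (adjusted p = 0.624) and 1.19 for Gbp5 (adjusted p = 0.352). Fkbp5 (-2.19 and -1.64), Errfi1 (-1.60 and -1.42), Arrdc2 (-1.69 and -1.28), Cytl1 (-2.94 and -2.79) and Cyp2c22 (-5.81 and -2.70) were lower at both, but of these only Cytl1 kept the 6-hour call in any fit without 1 library, in 3 of 6. In the B cell list the median was 2.20 at 24 hours and -0.16 at 6 hours, where 0 of 11 genes were called. In the T cell list it was 1.98 and 0.44, with 0 of 20 called at 6 hours, and in the natural killer list 2.17 and 2.09, with 2 of 13 called. Prf1 was 1 of those. Emo-6h replicate 3 was also its highest lung, and without that lung the 6-hour value of 2.30 became 1.58 (adjusted p = 0.257). The other called member was not a DEG at 24 hours. Gzmm, outside the list, was called at both times, with Emo-6h replicate 3 again the highest lung. Without that lung its 6-hour value of 3.52 became 2.40 (adjusted p = 0.151). So few genes were called at 6 hours that these counts show no difference between the times. Whether single genes differed between the times was tested as an interaction, and 9 genes passed (0.0565% of those tested), among them 1 of the T cell list (Ccr7), 0 of the B cell list, which does not hold Bank1, and 0 of the natural killer list. Bank1 passed.

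**Figure D5:**
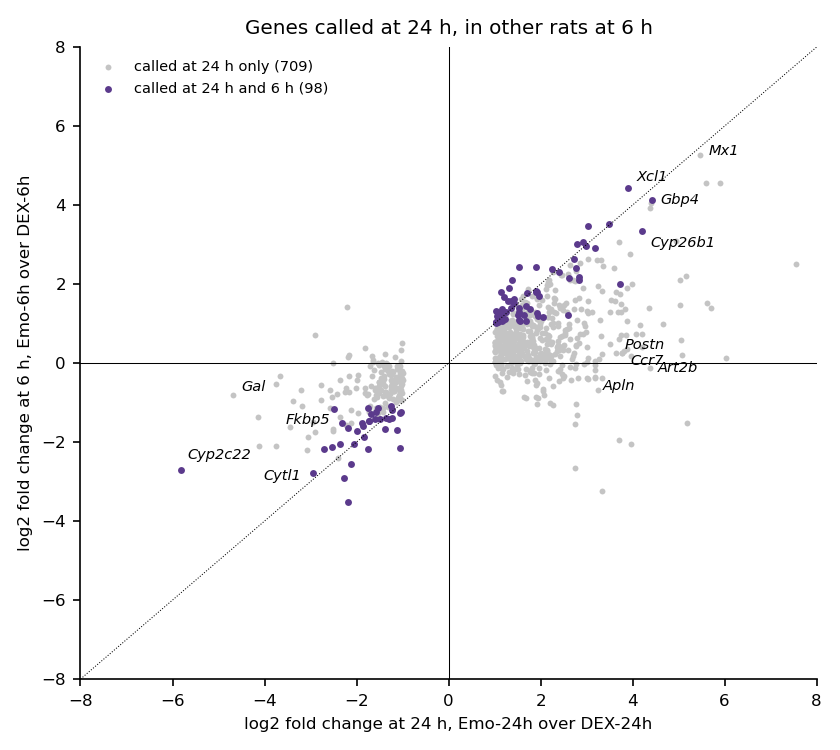
Log2 fold change of emodin over DEX at 24 hours (horizontal) and, in other rats, at 6 hours (vertical) for the 807 genes called at 24 hours. The 98 genes called at both times are dark and all have the same sign at both times, the dotted line marks equal values, and Postn, Ccr7, Apln and Art2b have values near 0 at 6 hours.

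Set against rats without taurocholate, the DEGs lay closer to Sham-24h in Emo-24h than in DEX-24h. Of the 807 genes, the mean log2(FPKM + 1) of Emo-24h was the nearer one to that of Sham-24h for 697 (86.4%), 515 of 609 up-regulated and 182 of 198 down-regulated genes. For all genes tested the share was 65.5%. Against Con-24h, 618 of 807 were nearer in Emo-24h (76.6%), with 56.0% of all genes tested. Against SAP-24h the share was 46.8%, 234 of 609 up-regulated and 144 of 198 down-regulated genes, with 45.2% of all genes tested. In single genes, edgeR's test called 0 of 15934 between Emo-24h and Sham-24h (0%), where 207 passed an unadjusted p under 0.05 and 2-fold, 662 between DEX-24h and Sham-24h (4.15%) and 796 between SAP-24h and Sham-24h (5%). In DEX-24h against Sham-24h, 17 of 20 T cell, 7 of 11 B cell, 6 of 13 natural killer, 9 of 15 dendritic cell and MHC class II and 10 of 29 chemokine genes were lower. In SAP-24h against Sham-24h, 12, 0, 1 and 1 genes of the first 4 of these lists were lower, and 3 chemokine and 6 of 30 cytokine genes were higher. In Emo-24h against Sham-24h these lists had medians from -0.22 (T cells and dendritic cells) to 0.55 (cytokines). These comparisons share the Sham-24h lungs, and 0 calls do not show that 2 groups are alike. Sham-24h and Con-24h rats had no taurocholate, and the infusion and any difference in how those lungs were handled cannot be told apart. In the share of uniquely mapped reads, too, Emo-24h libraries lay closer to Sham-24h and Con-24h than DEX-24h libraries did. Its part in the counts above was not tested. Il33 had 128, 65.5 and 76.9 FPKM in Sham-24h and 61.0, 50.1 and 73.1 FPKM in SAP-24h, both far above DEX-24h. Postn had 77.0, 99.2 and 47.8 FPKM in Sham-24h and 13.2, 12.6 and 22.2 FPKM in SAP-24h, so that SAP-24h lay above DEX-24h and overlapped with Emo-24h only in replicate 3. Tinagl1 had 40.7 to 55.8 FPKM in Sham-24h and 72.7 to 92.0 FPKM in SAP-24h, with DEX-24h above both.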

How the data were processed

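RNA from 30 rat lungs was sequenced as poly(A)-selected, directional libraries, and the 3 Emo-24h and 3 DEX-24h libraries were grouped by their labels. The authors trimmed reads with FASTX-Toolkit 0.0.13, aligned them with TopHat2 (2 mismatches allowed, build called rat_ensembl_v6), discarded multi-mapped reads and deposited read counts per gene together with FPKM values. The submitters' processing notes also name bcl2fastq and edgeR, without versions. The authors discarded antisense reads for the FPKM of predicted lncRNAs. The strand setting of the gene counts is not given in the sources used here, so that overlapping antisense genes may share reads. From the deposited counts, genes with at least 10 counts in enough libraries and 15 in total (15934 of 22914) were fitted over 10 groups and 30 libraries (20 residual degrees of freedom) with edgeR 4.0.16 (TMM scaling, quasi-likelihood test, R 4.3.3), and p-values were adjusted by Benjamini-Hochberg over all genes. Levels are the deposited FPKM, with a pseudocount of 1 where log2 is stated. Promoters came from RefSeq (GRCr8) by symbol.

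Genes are named by a rule: the 12 with the largest change and the 6 with the smallest p in each direction (at least 1 FPKM, groups not overlapping), the defining gene and up to 6 called members of each of 42 lists, 3 lncRNAs per direction, and the qPCR genes. Other list members, and genes called at both times or in the interaction, were named after their values were seen. The members and lists were chosen with earlier results of these data known. Lists held 789 genes, of which 35 had no match. Alternatives were RLE and upper-quartile scaling, DESeq2 1.42.0, edgeR's exact test, the groups alone, other filters and thresholds, a replicate block and each library left out. Leaving out libraries for the lists was added after seeing the data. In counts simulated for this comparison (15783 genes), 39 of 100 genes changed 2-fold and 86 of 100 changed 4-fold were called, with 4 unchanged genes called. The call required an estimated change of at least 2-fold, so that genes changed exactly 2-fold could fail on that threshold alone. Replicates of a group were separate rats and differed by more than sampling noise (chi-square per degree of freedom 37.4 to 63.0). Some genes that the naming rule or the interaction picked are not reported here, but count in the totals.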

Additional observations from a re-analysis of the deposited data

Results flagged for a closer look

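For 9 genes, the difference between the drugs at 24 hours was itself different from that at 6 hours, by the interaction term of edgeR's quasi-likelihood test (Benjamini-Hochberg adjusted p under 0.05 and 2-fold, 3 rats in each of 4 groups). At an unadjusted p under 0.05 and 2-fold, 733 genes passed. With DESeq2 the count among mRNA genes was 105, and with a replicate block it was 2. It was 1 with the groups alone and also without Emo-24h replicate 1, Emo-24h replicate 2, DEX-24h replicate 2 or Emo-6h replicate 1, and 21 without Emo-24h replicate 3. Abca8a was called in all 12 fits that left out 1 library (adjusted p up to 0.0499). Art2b and Postn were called in 5 of them, Ccr7 in 4, Apln and Bank1 in 3, Lrrc4 in 2 and Slc1a4 in 1, with adjusted p up to 0.145 (Bank1). The rats and the number of doses differed between the times and cannot be told apart.

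Art2b of T cells had an interaction of 4.51 on the log2 scale (adjusted p = 0.0209). It had 0.24, 0.39 and 0.63 FPKM in Emo-6h and 0.44, 0.63 and 0.29 FPKM in DEX-6h, against 0.03 to 0.06 FPKM in DEX-24h. The lowest group was thus DEX-24h, and both 6-hour groups overlapped. Ccr7 had an interaction of 3.52 (adjusted p = 0.0307), with 7.98, 5.37 and 9.46 FPKM in Emo-6h and 6.87, 7.04 and 5.00 FPKM in DEX-6h. Postn, with an interaction of 3.39 (adjusted p = 0.0209), had 68.8, 70.1 and 73.5 FPKM in Emo-6h and 37.97, 65.4 and 74.5 FPKM in DEX-6h. As for Art2b, the DEX-24h lungs lay below both 6-hour groups for Ccr7 and Postn.

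Apln had an interaction of 3.55 (adjusted p = 0.0307) and was highest at 6 hours, with 81.3, 38.4 and 75.9 FPKM in Emo-6h and 83.4, 113 and 53.7 FPKM in DEX-6h. Lrrc4, a synaptic adhesion gene, had an interaction of 2.44 (adjusted p = 0.0307), Bank1 one of 1.84 (adjusted p = 0.0437) and the lipid transporter gene Abca8a one of 1.81 (adjusted p = 0.00782). Abca8a rose by 1.53 at 24 hours, where it had 15.4, 13.6 and 8.54 against 3.86, 4.27 and 4.23 FPKM, and had a value of -0.28 at 6 hours. In Slc1a4, a neutral amino acid transporter, the interaction was -1.21 (adjusted p = 0.0448), from 0.75 at 6 hours and -0.46 at 24 hours. Slc1a4 was not a DEG at 24 hours.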

How the results depend on the processing

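The 797 DEGs among mRNA genes numbered 1295 with unadjusted p, 1404 with no fold threshold and 384 to 878 without 1 library. They numbered 790, 814, 972, 1099, 810, 733 and 693 with RLE scaling, upper-quartile scaling, DESeq2, edgeR's exact test, the groups alone, no filter and a stricter filter. The 10 lncRNAs became 16 with the exact test, 6 with the groups alone, 31 with unadjusted p and 2 to 14 without 1 library. At 6 hours, 221 became 382 with DESeq2, 354 with the exact test, 89 with the groups alone, 805 with unadjusted p, 454 with no fold threshold and 44 to 272 without 1 library. The 9 interaction genes became 105 with DESeq2, 1 with the groups alone, 706 with unadjusted p and 1 to 21 without 1 library. With a replicate block, 735 DEGs, 9 lncRNAs, 158 genes at 6 hours and 2 interaction genes were called. The replicate numbers share no stated pairing. The deviations of same-numbered Emo-24h and DEX-24h lungs had correlations of -0.091, 0.121 and -0.004, and those of differently numbered lungs ranged from -0.196 to 0.196. With 3 lungs per group, these values cannot show whether lungs of the same number were handled together. Genes closer to Sham-24h numbered 639 to 732 without 1 library. Among 162 named genes and the settings that kept all libraries, 1538 results kept direction and side of the threshold, 47 lost the call and 13 gained it, and 0 reversed. Without 1 library 732 kept both, 233 lost the call, 2 gained it and 5 reversed, in genes that were not called: Nqo1 to 0.13 without DEX-24h replicate 2 (range -0.31 to 0.13), Rpl3 to -0.01 without DEX-24h replicate 1 and -0.00 without Emo-24h replicate 3 (range -0.01 to 0.07), and Serpina1 to -0.11 without DEX-24h replicate 3 and -0.06 without Emo-24h replicate 1 (range -0.11 to 0.34). The cause was not tested, except that leaving out a library lowers the number of samples. Depth limits genes under about 1 FPKM, whose folds rest on few reads.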

Other observations

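Lists with a single call or a pair of calls add named genes to the description. Over all genes tested 5.06% were called, 3.82% higher and 1.24% lower in Emo-24h, and these lists had 3.85% to 12.5% of their genes called, so that their counts are no result about the lists. Of 26 acute phase and complement genes (median log2 fold change 0.41) Orm1 was the 1 DEG, and of 8 genes of steroid receptors and steroid handling (median 0.22) it was Abcb1a. Nr3c1, the glucocorticoid receptor gene, is present under 2 identifiers. The more abundant had 20.2, 22.3 and 17.3 FPKM in Emo-24h and 16.2, 13.98 and 13.1 FPKM in DEX-24h, below the fold threshold by edgeR's test with Benjamini-Hochberg adjustment (0.40, SE 0.12, adjusted p = 0.0420), with no overlap. Of 9 metallothionein and zinc genes (median -0.98) the zinc transporter Slc30a2 was down-regulated (-2.42, SE 0.49), while Mt1 did not pass at -0.98 and, for a second identifier, -1.10. Among 21 immediate early genes (median -0.58) Egr2 rose (1.50, SE 0.39) and Maff fell by 1.60. Maff lost its call without Emo-24h replicate 2 (adjusted p = 0.0646), and Egr2 lost its call without Emo-24h replicate 2, DEX-24h replicate 1 or DEX-24h replicate 2 (adjusted p up to 0.146).

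Of 16 p53 targets (median -0.21), Cdkn1a and Tp53inp1 (-1.04, SE 0.24) were down-regulated. Cdkn1a lost the call in 4 of the 6 fits without 1 library, and Tp53inp1 without Emo-24h replicate 2, DEX-24h replicate 1 or DEX-24h replicate 3 (adjusted p up to 0.121 and 0.0542). In fatty acid oxidation and fasting (19 genes, median -0.08), the lipid droplet protein Plin2 rose by 1.09 (SE 0.20) and Pdk4, which restrains glucose oxidation, fell by 1.22 (SE 0.34). Pdk4 lost its call in 4 of those fits (adjusted p up to 0.148). Plin2 had 57.5, 73.4 and 54.5 FPKM in Emo-24h and 32.6, 29.02 and 21.5 FPKM in DEX-24h, without overlap, and its call was lost without Emo-24h replicate 2 or DEX-24h replicate 3 because its fold fell under the threshold. Psat1 was the 1 DEG of 22 heat shock and unfolded protein response genes (median -0.20), Ptgs1 of 14 prostaglandin and leukotriene genes (median 0.19) and F3, which lost its call in 3 of those fits, of 16 coagulation genes (median -0.11). In the circadian clock list the E-box CACGTG was found in 4 of 14 promoters (28.6%), and in 6.42% of all promoters. The motif TNGCGTG was found in 2 of 6 promoters of aryl hydrocarbon receptor targets (33.3%) and in 4.89% of all, both strands searched.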
